A study of Mus musculus with 4 samples.

Results

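The 10 genes described here are the Notch receptors Notch1, Notch2, Notch3 and Notch4, the ligands Jag1 and Dll4, and the target repressors Hes1, Hey1, Hey2 and Heyl. Every probe set that the array's annotation assigns to 1 of these symbols was taken, which gave 18 of the 22626 probe sets that are not controls, and 10 of 12393 genes with a single symbol. Levels came from mouse oligonucleotide arrays hybridized with RNA of whole aorta, and all levels and differences below are on a log2 scale. The 4 groups were DPM aortas with 10 nM beta-estradiol (E2), DPM aortas with ethanol vehicle, wild-type (WT) aortas with E2 and WT aortas with vehicle, each for 4 h ex vivo. All donors were C57BL/6 females aged 12 to 14 weeks whose ovaries had been removed 1 week earlier, so every group lacked ovarian estrogen. DPM, the disrupting peptide mice, carry a transgene for residues 176 to 253 of estrogen receptor alpha. The CMV promoter that drives it is broadly active and not specific to vessels, and the peptide keeps the receptor apart from striatin, through which it signals rapidly to kinases. By their titles the E2 groups had 2 replicates and the vehicle groups 3, each sample was a pool of 4 aortas, and each group is represented here by a single level. With those numbers the errors of both genotypes' responses would be equal, but the error recovered from the authors' deposited table was 1.331 times as large in DPM as in WT, so how many arrays stand behind each level is not settled.

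A Notch receptor is a single-pass membrane protein that is cut when a ligand on a neighbouring cell pulls on it. Its intracellular part then enters the nucleus, binds the DNA-binding factor RBPJ and switches on Hes and Hey genes, which encode basic helix-loop-helix repressors. In arteries Notch1, Notch4 and Dll4 are known from endothelium, Notch3 from smooth muscle, and Jag1 from both layers.

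RefSeq promoter windows of 300 bases on build GRCm38.p6 were at hand for 7 of the 10 genes, namely the 4 receptors, both ligands and Hey2. The RBPJ core letters TGGGAA, read on both strands, occurred in the window of Hey2 and in none of the other 6, and 25.6% of all 32851 windows hold them. The Hey2 window is shown because Hey2 is the Notch target among the 7. The stretch printed is 253 of its 300 bases, on the minus strand at chr10:30842781-30843033, from 250 bases before the annotated start to 3 bases after it; the rest is left out. Capitals mark the core, which reads TTCCCA where it lies on the opposite strand (bases -207 to -202) and TGGGAA across the start (bases -3 to 3).
Hey2: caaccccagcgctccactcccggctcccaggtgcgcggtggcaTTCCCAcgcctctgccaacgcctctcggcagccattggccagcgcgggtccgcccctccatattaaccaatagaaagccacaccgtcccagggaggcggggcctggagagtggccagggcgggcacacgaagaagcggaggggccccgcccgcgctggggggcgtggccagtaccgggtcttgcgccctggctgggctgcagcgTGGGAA
The estrogen response element core AGGTCA was found in 0 of the 7 windows and in 16.3% of all windows, and the E-box CACGTG in 0 of 7 and in 7.15%. The N-box CACNAG, to which Hes proteins bind, was found in the windows of Notch1, Dll4, Notch2 and Notch3 (4 of 7) and in 42.5% of all windows. These matches describe letters and not binding.

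Among the 10 genes the largest difference between E2 and vehicle was that of Heyl at 1438886_at, in both genotypes. Of all 18 probe sets, 0 had an unadjusted p under 0.05 in DPM by the authors' deposited limma p, where 4.14% of the 8399 probe sets tested reached it upwards and 0.905% downwards. In WT 1 of 18 (5.56%) reached it, a Heyl probe set that was higher with E2, against 4.04% of all tested upwards and 2.37% downwards. For the difference between the responses 0 of 18 reached it, against 2.75% upwards and 0.988% downwards. After Benjamini-Hochberg adjustment of the limma p over all probe sets tested, 0 of the 18 passed 0.05 in any of the 3 comparisons, and 0.0357% of all tested passed in DPM, 0% in WT and 0% for the difference. The share of higher among all calls in DPM was 82.1%, against 45.7% when the differences were centred on their median and 59.8% after quantile normalization; for the difference between the responses these shares were 73.6%, 48.4% and 58.5%. These shares of all tested exclude low probe sets, which the 18 include. Over all 22626 probe sets, low ones included, the upward shares were 2.18% in DPM, 2.25% in WT and 1.59% for the difference, and the downward shares 0.84%, 1.34% and 0.853%. The median difference over the 18 probe sets was -0.00 in DPM and 0.00 in WT, beside 0.07 in DPM and 0.01 in WT over all probe sets tested, and that of the difference between the responses was -0.14, beside 0.06. Over all 22626 probe sets these 3 medians were 0.00. The error given after ± is 1 standard error, worked out from the fold and the p in the authors' deposited table. Testing required that 1 or more groups reached a level of 5, and 7 of the 18 probe sets met it: both of Notch1, 1 each of Notch2, Notch3 and Hey2, and 2 of Heyl. Hey2 (1418106_at) and 1 of the Heyl probe sets (1438886_at) met it through their E2 groups alone, so both had to be higher with E2 to be tested, and they were not tested when a mean level of 5 was required. The 7 had median differences of 0.10 in DPM, 0.16 in WT and -0.24 between the responses, which that selection touches and which support nothing by themselves. In 5 of the 18 probe sets, 1 each of Notch2, Hes1 and Hey2 and 2 of Heyl, both E2 groups stood above both vehicle groups, an order found in 13.9% of all 22626 probe sets and in 25.3% of those tested. For Hes1 both WT levels round to 3.603, so its place in this count rests on smaller decimals. In 4 of the 18, those of Notch1 and 2 of Notch3, DPM with E2 was the lowest group, beside 16% of all probe sets and 19.9% of those tested.

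**Figure D1:**
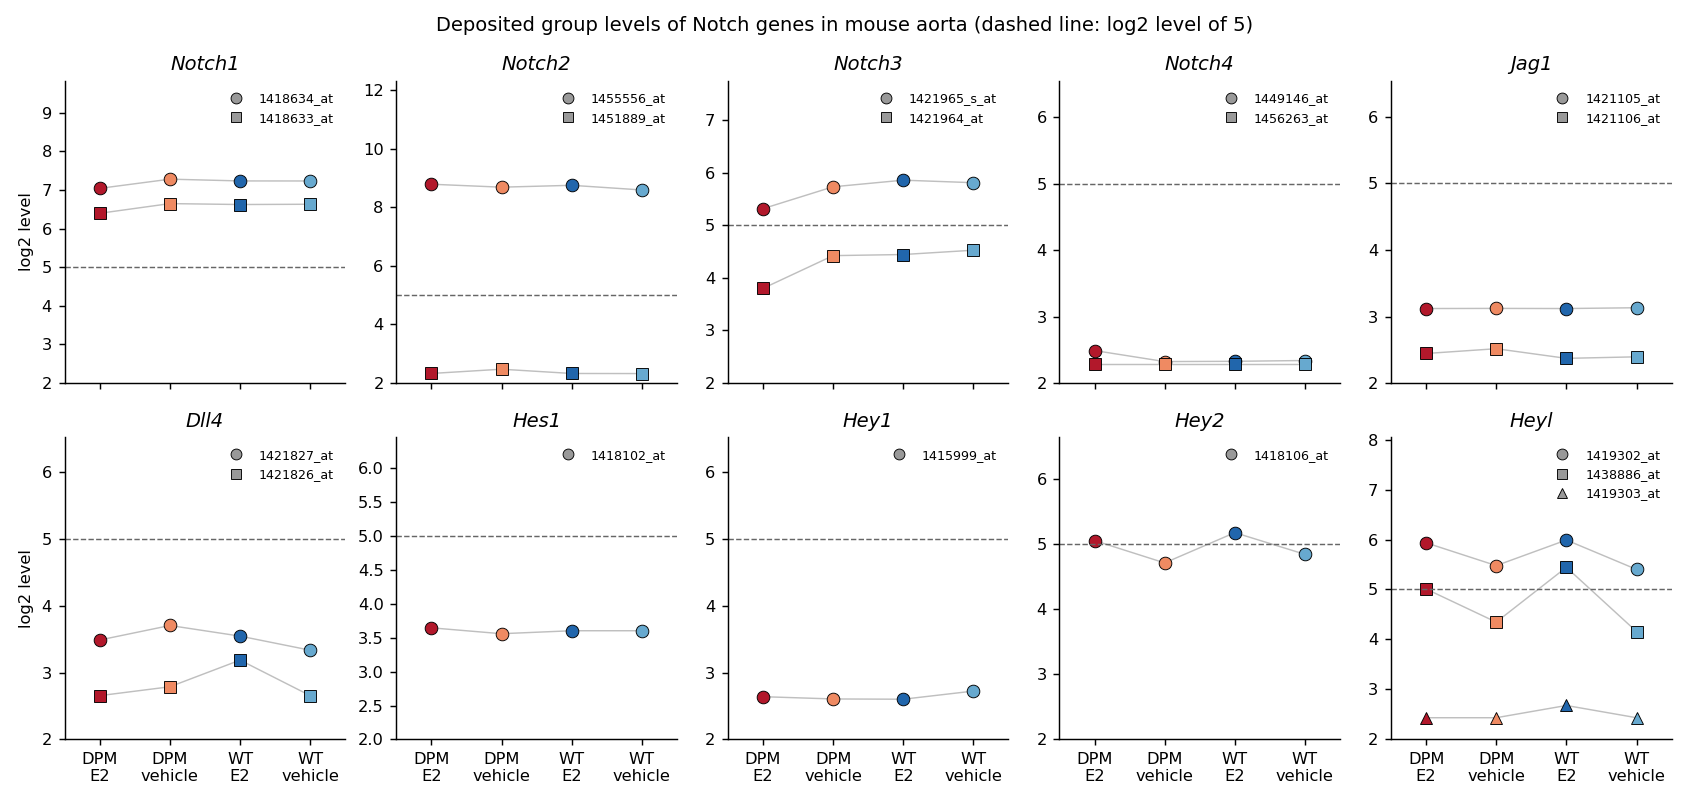
Log2 level (vertical axes, which differ between panels) of every probe set of the 10 genes in the 4 groups, with 1 deposited value per group, joined by grey lines for reading only. The dashed line is the level of 5 needed for testing; 2 Heyl probe sets are higher in both E2 groups than in both vehicle groups, and both Notch3 probe sets are lowest in DPM with E2.

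Among the receptors, Notch1, the receptor of the arterial endothelium, varied by at most 0.25 between groups. Its probe set 1418634_at stood at 7.04 in DPM with E2, 7.28 in DPM with vehicle, 7.24 in WT with E2 and 7.23 in WT with vehicle. Its probe set 1418633_at stood at 6.40, 6.65, 6.62 and 6.63 in the same groups. The lowest level lay in DPM with E2 at both probe sets, and the other 3 groups lay closer to each other than to it. The E2 response was -0.24 ± 0.29 in DPM and 0.00 ± 0.22 in WT at the first probe set, and -0.25 ± 0.36 in DPM and -0.01 ± 0.27 in WT at the second.

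Notch2, a receptor found in vascular smooth muscle as well as in many other tissues, had levels of 8.79 in DPM with E2, 8.69 in DPM with vehicle, 8.75 in WT with E2 and 8.59 in WT with vehicle at 1455556_at. Both E2 groups were above both vehicle groups, an order found in 25.3% of all probe sets tested. The E2 response was 0.10 ± 0.13 in DPM and 0.16 ± 0.10 in WT. The DPM value was 0.03 when centred and 0.05 after quantile normalization. The responses differed by -0.06 ± 0.17, with a 95% interval of -0.46 to 0.34, the narrowest among the member probe sets tested. The other Notch2 probe set, 1451889_at, lay between 2.32 and 2.47, close to the lowest level of the array (2.29), with responses of -0.15 ± 0.10 in DPM and 0.00 ± 0.08 in WT.

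Notch3, the receptor of arterial smooth muscle and pericytes, stood lowest in DPM with E2 at both of its probe sets. At 1421965_s_at, whose suffix marks probes that match more than 1 transcript, the levels were 5.31 in DPM with E2, 5.73 in DPM with vehicle, 5.86 in WT with E2 and 5.81 in WT with vehicle. At 1421964_at, which lay under the level needed for testing, they were 3.80, 4.42, 4.44 and 4.52. At both probe sets the other 3 groups lay closer to each other than to DPM with E2.

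The E2 response of Notch3 was -0.42 ± 0.26 in DPM and 0.05 ± 0.20 in WT at 1421965_s_at (the authors' deposited p = 0.163 in DPM and 0.815 in WT). At 1421964_at it was -0.62 ± 0.47 in DPM and -0.08 ± 0.36 in WT. The responses differed by -0.46 ± 0.33 (95% interval -1.26 to 0.33) at the first and by -0.54 ± 0.59 at the second. The sign was the same at both probe sets, and neither difference had an unadjusted p under 0.05.

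Notch4, a receptor largely confined to endothelium, lay at or near the lowest level of the array. Its probe set 1456263_at was at 2.29 in all 4 groups, and 1449146_at stood at 2.49 in DPM with E2, 2.32 in DPM with vehicle, 2.33 in WT with E2 and 2.34 in WT with vehicle. The response at 1449146_at was 0.17 ± 0.09 in DPM and -0.01 ± 0.06 in WT, both under the level needed for testing.

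The ligands also gave little signal. Jag1, which smooth muscle and endothelium present to neighbouring cells, lay between 3.12 and 3.13 at 1421105_at and between 2.37 and 2.52 at 1421106_at, with the 4 groups in different orders at the 2 probe sets. Its responses were -0.00 ± 0.01 in DPM and -0.01 ± 0.01 in WT at the first and -0.07 ± 0.20 in DPM and -0.02 ± 0.15 in WT at the second.

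Dll4, the ligand of arterial and sprouting endothelium, stood at 3.49 in DPM with E2, 3.71 in DPM with vehicle, 3.55 in WT with E2 and 3.33 in WT with vehicle at 1421827_at. At 1421826_at it stood at 2.66, 2.79, 3.19 and 2.65. At both probe sets the E2 group was the lower in DPM and the higher in WT, with responses of -0.22 ± 0.27 in DPM and 0.21 ± 0.21 in WT at the first and of -0.13 ± 0.34 in DPM and 0.53 ± 0.25 in WT at the second. The difference between the responses was -0.43 ± 0.34 and -0.66 ± 0.42 (the authors' deposited p = 0.254 and 0.162), so opposite signs in DPM and WT were not shown to be different responses. The 9 endothelial markers that passed the level filter had median responses of -0.02 in DPM and 0.30 in WT, and their part in the Dll4 values was not tested.

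Of the 4 targets, Hes1 and Hey1 were low in every group. Hes1, a repressor that many tissues use downstream of Notch, had a level of 3.65 in DPM with E2, 3.56 in DPM with vehicle, 3.60 in WT with E2 and 3.60 in WT with vehicle. Its response was 0.09 ± 0.06 in DPM and 0.00 ± 0.04 in WT, with 95% intervals of -0.05 to 0.23 in DPM and -0.11 to 0.11 in WT. Hey1, which acts beside Hey2 in arterial development, stood at 2.64, 2.61, 2.60 and 2.72 in the same order of groups. Its response was 0.03 ± 0.14 in DPM and -0.12 ± 0.11 in WT. Both genes lay under the level needed for testing in all 4 groups.

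Hey2, a repressor of arterial endothelium and smooth muscle, stood at 5.06 in DPM with E2, 4.71 in DPM with vehicle, 5.18 in WT with E2 and 4.84 in WT with vehicle. Both E2 groups were above both vehicle groups, an order found in 25.3% of all probe sets tested. Hey2 passed the level filter through its E2 groups alone, which favours this order. Its response was 0.34 ± 0.38 in DPM and 0.33 ± 0.28 in WT (the authors' deposited p = 0.395 in DPM and 0.281 in WT). The responses differed by 0.01 ± 0.47, with a 95% interval of -1.13 to 1.15 that holds differences in both directions.

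Heyl, a Hey family repressor of vascular smooth muscle, was highest in WT with E2 at all 3 of its probe sets. At 1419302_at the levels were 5.93 in DPM with E2, 5.48 in DPM with vehicle, 5.99 in WT with E2 and 5.40 in WT with vehicle. At 1438886_at they were 5.01, 4.35, 5.44 and 4.16, and at 1419303_at they were 2.43, 2.43, 2.68 and 2.43. At the first 2 probe sets both E2 levels were above both vehicle levels, an order found in 25.3% of all probe sets tested and in 13.9% of all 22626. The second, 1438886_at, passed the level filter through its E2 groups alone, which favours this order.

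The E2 response of Heyl was 0.46 ± 0.34 in DPM and 0.59 ± 0.26 in WT at 1419302_at (the authors' deposited p = 0.229 in DPM and 0.0597 in WT). At 1438886_at it was 0.66 ± 0.39 in DPM and 1.29 ± 0.30 in WT (the authors' deposited p = 0.139 in DPM and 0.00404 in WT), folds of 1.58 and 2.44. The WT response at 1438886_at had a 95% interval of 0.58 to 2.00 and an adjusted limma p of 0.415. Its adjusted p lay between 0.415 and 0.684 over the settings that tested it. This response was the largest of the 18 member probe sets, and its probe set reached a level of 5 in the E2 groups alone. At 1419303_at, near background, the response was -0.00 ± 0.16 in DPM and 0.25 ± 0.12 in WT. The DPM response minus the WT response was -0.13 ± 0.43, -0.62 ± 0.49 and -0.25 ± 0.20 at the 3 probe sets (the authors' deposited p = 0.768, 0.249 and 0.272). The 95% interval of this difference at 1438886_at, -1.81 to 0.56, holds 0 and also a difference as large as the whole WT response.

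**Figure D2:**
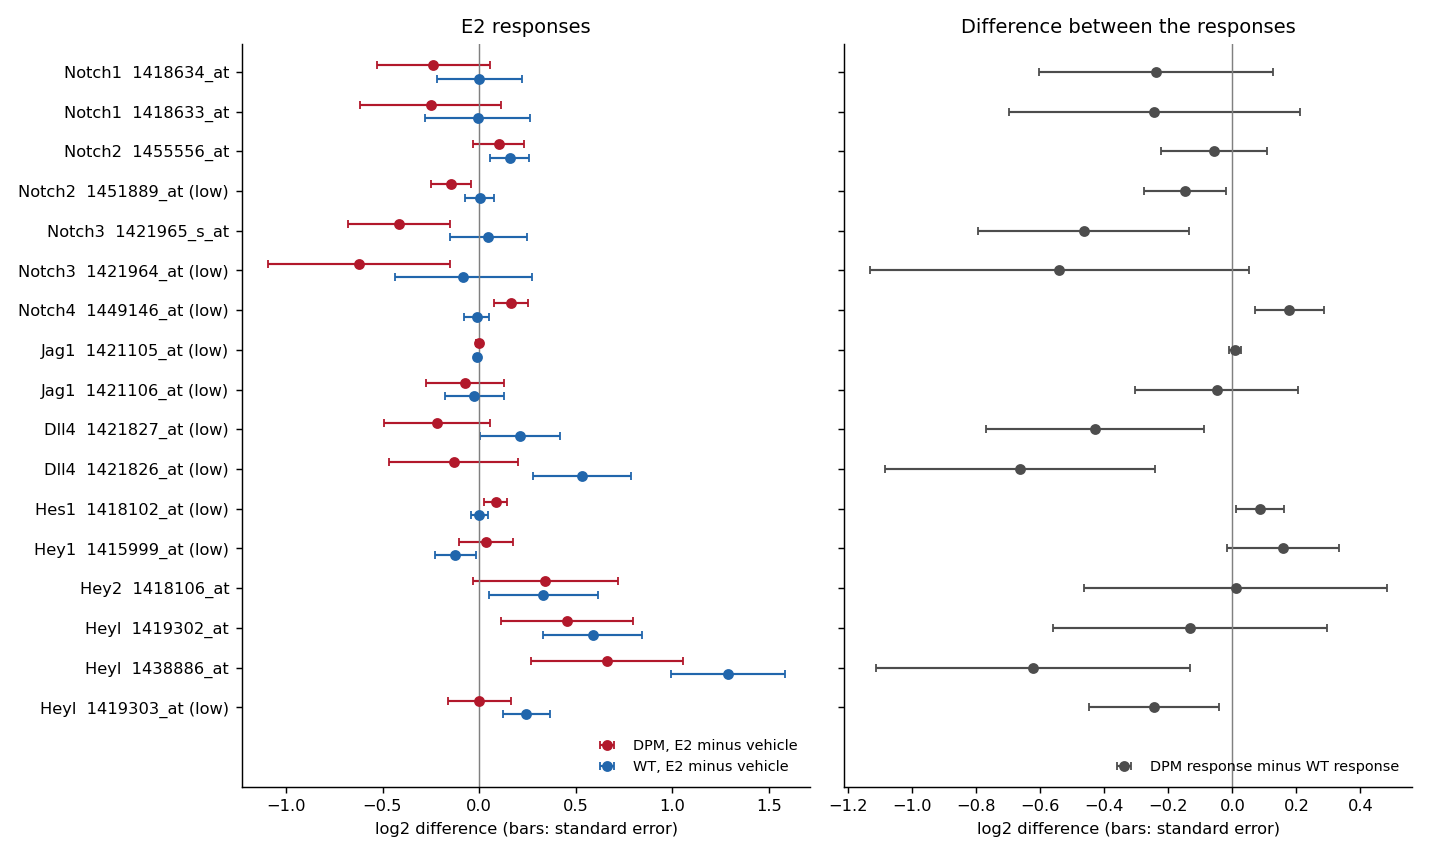
Log2 differences with standard errors for the 17 member probe sets that have an error, with probe sets below the level needed for testing marked low. The left panel gives the E2 responses in DPM (upper point of each pair) and WT (lower point), and the right panel their difference; the Heyl points at 1419302_at and 1438886_at lie right of 0 in both genotypes, and Dll4 at 1421826_at and Heyl at 1438886_at lie furthest left on the right, at -0.66 and -0.62.

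Averaged over both genotypes, an estimate chosen after the values were seen, the E2 response of Heyl was 0.52 ± 0.21 at 1419302_at and 0.98 ± 0.25 at 1438886_at. These are 2 of the 18 member probe sets (11.1%) with an unadjusted p under 0.05 upwards from the recovered errors, where 6.08% of all probe sets tested and 3.13% of all 22626 reached it. At 1419302_at that call ended when the differences were centred or quantile normalized. Both probe sets belong to 1 gene, and 1438886_at passed the level filter through its E2 groups alone. The adjusted p were 0.64 and 0.412, while 0.0714% of all tested passed the adjusted threshold. Hey2 averaged 0.34 ± 0.24 and Notch2, at 1455556_at, 0.13 ± 0.08. Notch3 averaged -0.18 ± 0.17 at 1421965_s_at and Notch1 -0.12 ± 0.18 at 1418634_at.

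Heyl was the 1 member whose highest probe set, 1419302_at, spanned 1.5-fold over the groups. The profile of that probe set was set against those of 7629 probe sets of other genes. Among so many profiles of only 4 levels a close one is likely, so a small distance supports nothing by itself. The likeness measured was the Euclidean distance between the 4 levels after subtraction of each profile's mean, over 4 groups. Closest to Heyl was Htra3, a secreted serine protease gene, at a distance of 0.03, with levels of 8.93 in DPM with E2, 8.45 in DPM with vehicle, 8.97 in WT with E2 and 8.35 in WT with vehicle. Cryab, a small heat shock protein gene, followed at 0.05, with levels of 9.89, 9.50, 9.98 and 9.41. A second Cryab probe set, 1434369_a_at, had responses of 0.39 in DPM and 0.58 in WT, while Htra3 at 1427029_at, below the level needed for testing, had 0.12 in DPM and -0.00 in WT.

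DPM was set against WT within each treatment to ask whether the peptide alone goes with a different level of these genes. No p for this contrast was used here, so sizes are described, and the error of each is at most that of the difference between the responses if the groups are independent. With E2, Notch3 differed most, by -0.54 at 1421965_s_at (error at most 0.33) and -0.64 at 1421964_at (error at most 0.59). Dll4 at 1421826_at followed with -0.53 and Heyl at 1438886_at with -0.43, while Heyl at 1419302_at was at -0.06. Of the 18 probe sets, 1 was lower in DPM with E2 by at least 1.5-fold (Notch3 at 1421964_at) and 0 were higher, beside 1.68% lower and 1.11% higher among all tested. That Notch3 probe set lay under the level needed for testing, so it is not among those the shares were taken over. With vehicle, 0 of the 18 reached 1.5-fold in either direction, beside 1.39% lower and 2.06% higher among all tested. Without the level filter, 369 of all 22626 probe sets reached 1.5-fold with E2 and 473 with vehicle, both directions together. The members ranged from -0.13 for Hey2 to 0.37 for Dll4 at 1421827_at with vehicle.

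**Figure D3:**
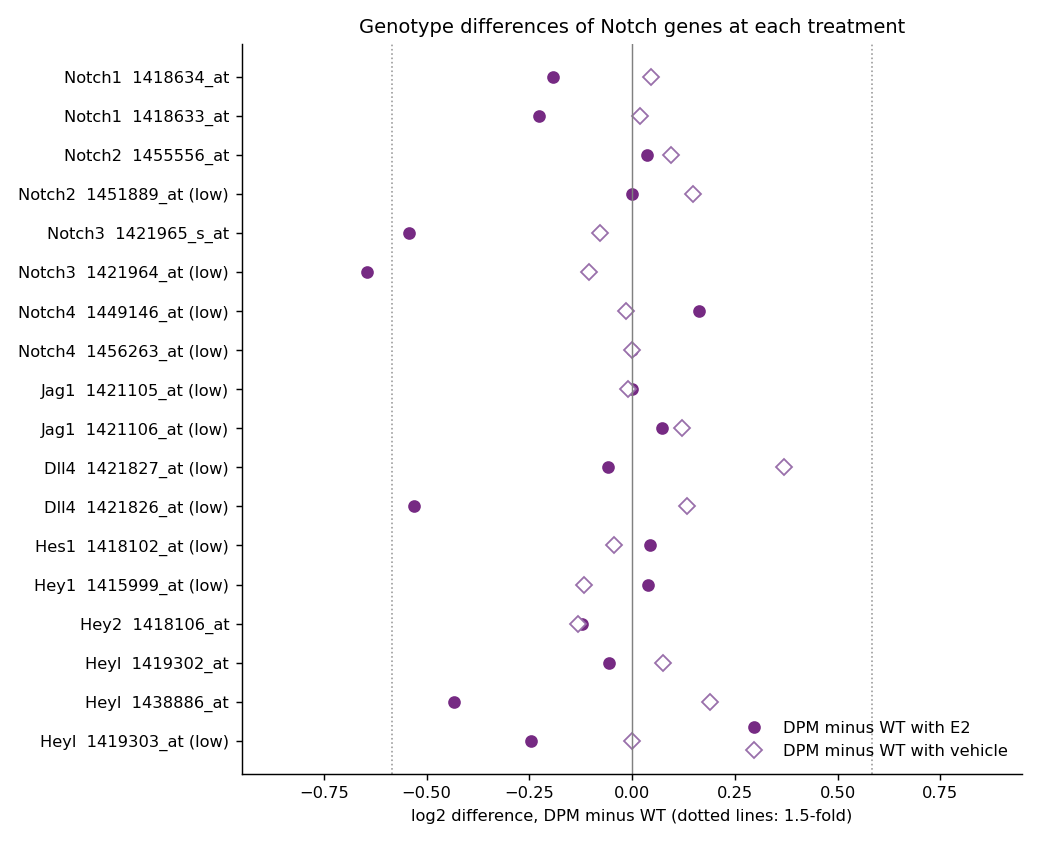
Log2 difference between DPM and WT for all 18 member probe sets, with E2 (filled circles) and with vehicle (open diamonds); dotted lines mark 1.5-fold, no errors are drawn, and probe sets below the level needed for testing are marked low. With E2 both Notch3 probe sets lie furthest left, at -0.54 and -0.64, while with vehicle every member lies inside the dotted lines.

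Of the 70 entries in the 8 lists of other genes of the Notch pathway, 61 were on the array and 33 passed the level filter. Each gene was counted by its probe set of highest mean level. By the deposited limma p, 1 of the 33 had an unadjusted p under 0.05 upwards in DPM, where 4.14% of all tested did, and 1 downwards, where 0.905% did. In WT 0 did in either direction, beside 4.04% upwards and 2.37% downwards of all tested, and 1 did downwards for the difference between the responses, beside 0.988%; 0 passed after adjustment over all probe sets tested. Their median response was 0.05 in DPM and 0.09 in WT.

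Dll1, the only gene of 4 other ligands past the filter, had a response of 0.23 ± 0.22 in DPM and 0.33 ± 0.17 in WT, and Poglut1, which adds glucose to the receptors and was the only 1 of 5 modifying enzymes past the filter, -0.43 ± 0.32 in DPM and 0.11 ± 0.24 in WT. Of 10 genes for receptor cleavage 6 passed, with median responses of -0.01 in DPM and 0.08 in WT. Among them Adam10, the protease of the first cut, had -0.04 ± 0.21 in DPM and 0.22 ± 0.16 in WT. Aph1a, a subunit of gamma-secretase, stood at 5.49 in DPM with E2, 5.87 in DPM with vehicle, 5.46 in WT with E2 and 5.23 in WT with vehicle at 1451554_a_at. DPM with vehicle was the highest group, at 0.64 over WT with vehicle, and the response was -0.38 ± 0.31 in DPM and 0.23 ± 0.23 in WT. Its lower probe set 1424979_at, outside that count, had -0.27 ± 0.09 in DPM (the authors' deposited p = 0.0187, adjusted p = 0.904) and 0.12 ± 0.06 in WT. The difference there was -0.38 ± 0.11 (the authors' deposited p = 0.0104, adjusted p = 0.99).

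In the nuclear complex, Rbpj stood between 6.94 and 7.01 with responses of -0.04 ± 0.15 in DPM and -0.07 ± 0.11 in WT, and the 5 genes past the filter had medians of 0.08 in DPM and 0.13 in WT. Among the 5 corepressors past the filter, Hdac1, a histone deacetylase gene, had the 1 upward response with an unadjusted p under 0.05 in DPM (0.20 ± 0.08, the authors' deposited p = 0.0442, adjusted p = 0.904), against 0.13 ± 0.06 in WT. The DPM value of Hdac1 was 0.12 when centred and 0.13 after quantile normalization, both without that call. Of 11 genes for receptor turnover 5 passed. Numbl, a homologue of the Notch inhibitor Numb, stood at 4.92 in DPM with E2, 5.78 in DPM with vehicle, 5.63 in WT with E2 and 5.67 in WT with vehicle, and Dtx3, of the Deltex family of ubiquitin ligases, at 4.71, 5.25, 5.36 and 5.36. Like Notch3, both were lowest in DPM with E2, a place found in 19.9% of all probe sets tested. Their responses were -0.87 ± 0.61 and -0.54 ± 0.28 in DPM and -0.04 ± 0.46 and 0.00 ± 0.21 in WT. The remaining turnover genes past the filter, Numb, Dtx2 and Itch, were highest in DPM with E2, with DPM responses of 0.11, 0.21 and 0.24.

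Bhlhe40 was the only 1 of 8 further Hes-like genes past the filter (-0.04 ± 0.25 in DPM and 0.08 ± 0.18 in WT), and Hes2, Hes3, Hes5 and Hes7 lay at the array's lowest level, to within 0.05, in every group. Of 15 vascular genes reported to respond to Notch 9 passed, with median responses of 0.03 in DPM and 0.07 in WT. Flt1, a receptor of vascular endothelial growth factor, was the 1 gene counted with a downward p under 0.05 in DPM, with levels of 4.61 in DPM with E2, 5.48 in DPM with vehicle, 5.36 in WT with E2 and 4.99 in WT with vehicle. The E2 group was the lower in DPM and the higher in WT. Efnb2, an arterial ephrin ligand, had 0.24 ± 0.23 in DPM and 0.12 ± 0.17 in WT, and Pdgfrb, a mural cell receptor, 0.18 ± 0.16 in DPM and 0.14 ± 0.12 in WT.

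**Figure D4:**
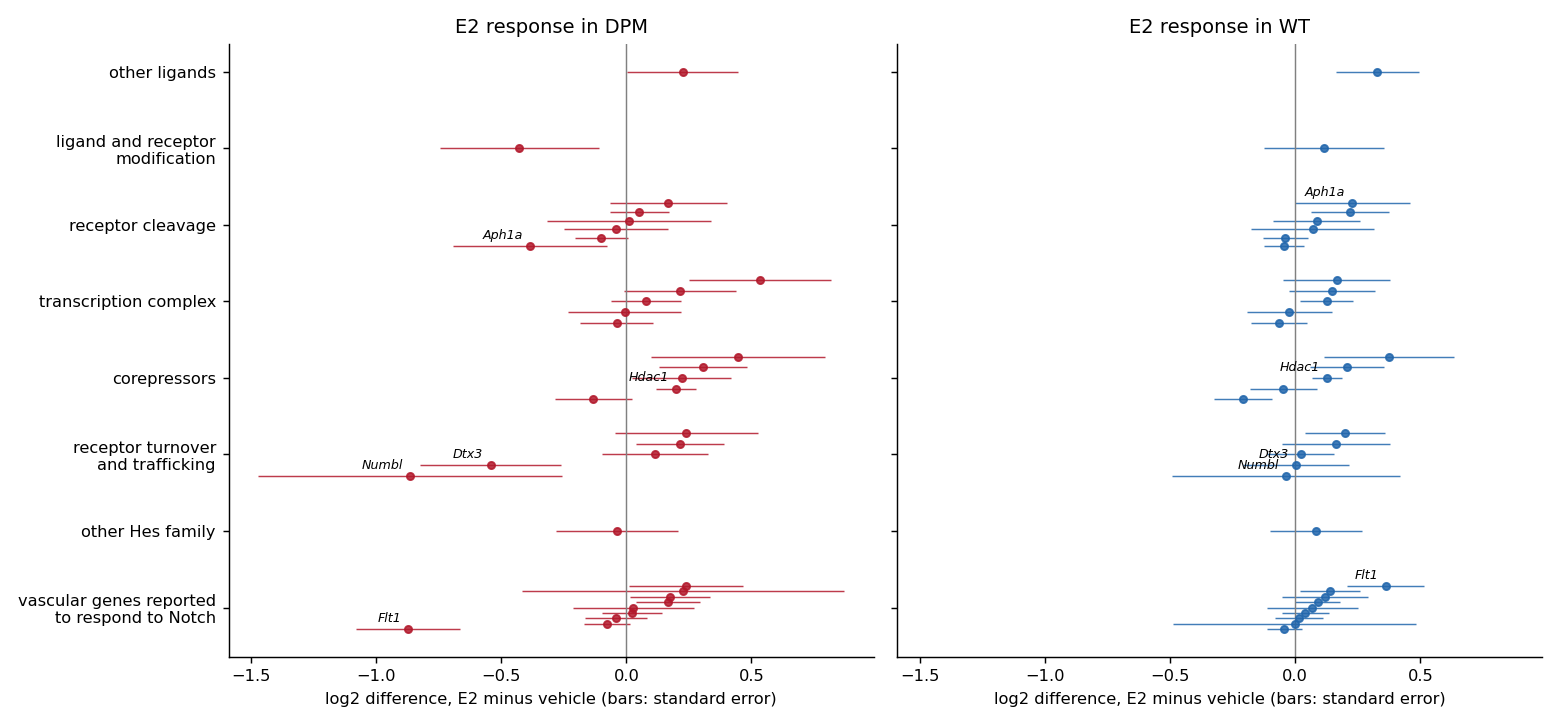
Log2 E2 responses with standard errors of the 33 other pathway genes past the level filter, in rows by list, in DPM (left) and WT (right); genes named by the rule carry labels. Most points lie within 0.5 of 0, and Flt1, Numbl and Dtx3 lie furthest left in DPM.

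Whole aorta holds several cell types, and fewer cells of a type cannot be told apart from less RNA per cell. Smooth muscle markers were high (Acta2 at 13.92 to 14.05), endothelial markers such as Pecam1 were present (7.78 to 8.21), and Des, a muscle filament gene, was past the level of 5 in DPM with vehicle alone. The 8 smooth muscle markers had median responses of -0.06 in DPM and -0.00 in WT, beside the Notch3 and Heyl values above. Of the 8, 6 (Acta2, Tagln, Myh11, Smtn, Cnn1 and Des) were lowest in DPM with E2, the group where Notch3 was lowest. That place was found in 19.9% of all probe sets tested and in 16% of all 22626. Over the 4 groups Acta2, Tagln and Myh11 spanned only 0.12, 0.19 and 0.10. The largest falls in DPM were those of Des (-0.86 ± 0.42) and Smtn (-0.38 ± 0.15). Des had to be lower with E2 in DPM, because it passed the filter through DPM with vehicle alone. In DPM, Acta2, Tagln, Myh11 and Lmod1 had responses of -0.08, -0.05, -0.04 and -0.00, and Myocd of 0.10. The summed linear level of the 8 smooth muscle markers was 37820 in DPM with E2, 39900 in DPM with vehicle, 41160 in WT with E2 and 41310 in WT with vehicle. The summed level of the 10 endothelial markers, all on the array, was 942.9, 1057, 1146 and 897.1 in the same order, and 0 of them lay at the lowest level in all groups. All 7 cardiac muscle markers passed the filter through DPM with vehicle alone, with summed levels of 79.7 in DPM with E2, 786.1 in DPM with vehicle, 70.0 in WT with E2 and 88.5 in WT with vehicle. The 5 mesothelial markers on the array summed to 401 in DPM with E2, 252.4 in DPM with vehicle, 240.4 in WT with E2 and 229.6 in WT with vehicle. Upk3b had responses of 1.17 ± 1.28 in DPM and 1.93 ± 0.96 in WT. Its E2 groups were both above both vehicle groups as for Heyl, an order that no other marker of this list had. Krt18 had 0.45 ± 0.20 in DPM and -0.44 ± 0.15 in WT. In Krt19 and Msln both DPM groups stood above both WT groups, and Wt1 lay near the lowest level. The 6 leukocyte markers summed to 745.6, 623.4, 532.5 and 488.3 in the same order of groups. Of the 5 past the filter, 3 were higher and 2 lower with E2 in DPM, and 4 higher and 1 lower in WT. Their median responses were 0.33 in DPM and 0.14 in WT. Cd53 had the largest DPM response of these 5 and was the 1 lower in WT (1.03 ± 0.40 in DPM and -0.42 ± 0.30 in WT). Scgb1a1 and Scgb3a2, of the airway list, likewise passed through DPM with vehicle alone. The 5' Gapdh control, a sign of RNA quality, stood at 10.18 in DPM with E2, 11.39 in DPM with vehicle, 11.26 in WT with E2 and 10.72 in WT with vehicle, lowest in the group where Notch3 was lowest. The 5' b-Actin control stood at 12.07, 12.64, 12.15 and 12.56 in the same order, low in both E2 groups. The 3' b-Actin control was low in both E2 groups too, at 13.71, 14.08, 13.69 and 13.93. The 3' Gapdh control stood at 12.14, 12.04, 12.18 and 12.21. For the E2 response of 5' Gapdh the authors' deposited limma p was 0.314 in DPM and 0.54 in WT. For 5' b-Actin it was 0.19 in DPM and 0.213 in WT. The part of these signals in the DPM values of Notch3, Dll4 and Heyl was not tested.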

How the data were processed

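Total RNA of pooled aortas was labelled from oligo-dT primed cDNA. GCRMA and limma are named in the submitters' processing notes without version or role. The authors' deposited table holds log2 group levels, 3 log2 differences and an unadjusted p-value for each, and a second deposited table held identical levels. Symbols came from the platform annotation and were brought up to date through Entrez identifiers in RefSeq (GRCm38.p6): 20393 of 22690 probe sets had 1 symbol, 691 several and 1606 none, and 64 were controls.

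Deposited limma p-values were adjusted by Benjamini-Hochberg over the 8399 probe sets that reached a level of 5 in any group. Standard errors were recovered from folds and p at 6.44 total degrees of freedom, the value at which the 3 contrasts' errors kept 1 ratio over 6864 probe sets; the DPM error was 1.331 and that of the difference 1.665 times the WT error. The recovery was tested on simulated data. That simulation gave DPM with vehicle fewer arrays than its title names, so it does not settle the numbers of arrays here. Median errors were 0.21 (DPM), 0.15 (WT) and 0.26 (difference); the number of arrays limits this precision. The sources used here do not say whether replicates were separate pools, so the p-values may measure technical spread.

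All member probe sets were named, with other pathway genes at an unadjusted p under 0.05 or 1.5-fold in any comparison; the only gene of its list past the filter, Adam10, Rbpj, Efnb2 and Pdgfrb were chosen with their values in view. The members and lists were chosen with earlier results of these data known. Alternatives were other level filters, 1 probe set per gene, centring, quantile normalization and 6 degrees of freedom. Python 3.11.15, scipy 1.17.1 and pandas 2.3.3 were used.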

Additional observations from a re-analysis of the deposited data

Results flagged for a closer look

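Flt1, from the list of vascular genes reported to respond to Notch, had a response at 1451756_at of -0.87 ± 0.21 in DPM and 0.36 ± 0.16 in WT, and the difference of -1.23 ± 0.26 had an unadjusted limma p of 0.00258 in the authors' deposited table and an adjusted p of 0.902 over all probe sets tested. Aph1a, a gamma-secretase subunit, had a response at 1424979_at of -0.27 ± 0.09 in DPM and 0.12 ± 0.06 in WT, and its difference of -0.38 ± 0.11 had an unadjusted limma p of 0.0104 in the authors' deposited table and an adjusted p of 0.99. Both are listed because the test of that difference was past an unadjusted 0.05. Of the 18 member probe sets 0 reached it, and of all probe sets tested 2.75% did upwards and 0.988% downwards. Aph1a at 1424979_at is a lower probe set, outside the count of pathway genes by their highest probe set. The other tested Aph1a probe set, 1451554_a_at, differed by -0.61 ± 0.39. The other 2 Flt1 probe sets, below the level needed for testing, differed by 0.24 ± 0.42 and -0.34 ± 0.23.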

How the results depend on the processing

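The member probe sets past the level filter kept their side of the adjusted threshold under every setting that tested them. Signs turned for values near 0: with centring, Notch1 (1418634_at) in WT went to -0.012, Dtx3 in WT to -0.010, the Hey2 difference between the responses to -0.049 and Aph1a in DPM against WT with E2 to -0.004; with quantile normalization the same Notch1 value was -0.025 and the Hey2 value -0.045. Probe sets with an adjusted p under 0.05 in DPM numbered 3, against 5 with no filter, 1 with a level of 6, 1 with 1 probe set per gene and 0 when centred or quantile normalized. In WT there were 0 (538 at an unadjusted p under 0.05 by limma), against 3 with no filter, and for the difference 0 (314 unadjusted), against 1 with no filter and 1 with 1 probe set per gene. The averaged response gave 6, against 2 with 1 probe set per gene and 0 with a level of 6, centred or quantile normalized. At 1.5-fold, DPM against WT gave 234 probe sets with E2 (369 unfiltered, 145 at a level of 6, 112 with 1 per gene) and 290 with vehicle (473, 185 and 167). These counts follow partly from the number tested; otherwise the cause was not tested. Against the WT vehicle group, DPM with E2 differed by 0.53 at 1419302_at and 0.85 at 1438886_at for Heyl, and by -0.49 at 1421965_s_at for Notch3, a contrast added after seeing the data. Leaving out replicates was not run, and no paired analysis was possible because each group is represented by a single level without replicate numbers. Signals near background limit Notch4, Jag1, Dll4, Hes1 and Hey1.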
